A study of Mus musculus with 6 samples.

Results

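The platelet and megakaryocyte genes measured here were Pf4, Ppbp, Clec1b, Itga2b, Itgb3, Gp9, Gp1ba, Gp1bb, Gp5 and Gp6. They were chosen by name, and every non-control array probe whose transcript accession maps to 1 of these symbols was kept on its own, which gave 15 probes for the 10 genes out of 39429 probes in all. RNA came from whole liver of male mice 6 weeks old that had received no treatment, 3 labelled WT and 3 labelled Sec15 KO, with 1 single-colour array per sample. Sec15 is a subunit of the exocyst, a protein complex that docks vesicles at the cell surface for release, and by its title the study asks how Sec15 directs STAT3 transport and so the fate of blood stem cells. The labels give no strain, allele, promoter or Cre line, do not say whether Exoc6 or Exoc6b was deleted, and number the replicates without naming separate animals. Every p-value therefore reflects only how far these samples spread, and that spread may be technical. All values are log2 signals relative to the 75th percentile of the probes on the same array, so a value of 0 is that percentile.

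Platelets are cell fragments shed by megakaryocytes, the large marrow cells that load them with granules, receptors and RNA. Platelets adhere to a damaged vessel wall through the GPIb-IX-V complex and the collagen receptor GPVI, signal through ITAM-type receptors such as CLEC-2, and then aggregate through the integrin alphaIIb-beta3. Circulating platelets stay in liver vessels when the organ is taken, and the liver also makes thrombopoietin, the hormone that drives their production. In bulk tissue, fewer cells of a type and less RNA per cell cannot be told apart.

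In Sec15 KO liver 2 of the 10 genes were higher. Clec1b, which encodes the platelet receptor CLEC-2 and in mouse liver is also made by Kupffer cells, rose about 2-fold on 2 of its 3 probes and not on the third. Pf4, the platelet factor 4 chemokine, rose 1.87-fold with an adjusted p just under the threshold. None of the 7 genes with a tested probe was called lower. The 95% confidence intervals of Gp9 (-1.69 to 0.43) and Gp1ba (-2.83 to 0.71) were wide, so a fall in them is not excluded. The probes for Itga2b, Gp5 and Gp6 did not pass the detection filter. A probe was tested when its signal was well above background, as flagged by the scanner software, on at least 3 of the 6 arrays, and 9 of the 15 probes, from 7 genes, met that filter. Of these 9, 3 were higher in KO and 0 lower at a limma adjusted p under 0.05, while 17.0% of the 27024 probes tested across the array were higher and 11.6% lower (28.6% in either direction). At an unadjusted p under 0.05 the count of members lower was also 0. The median difference of the 9 probes was -0.07, against 0.08 for all probes tested, and a probe that passed the filter through one group alone had to differ. Of all 15 probes, 3 had every KO value above every WT value and 0 the reverse. Without the filter this held for 27.3% and 15.5% of all probes, and among tested probes for 30.6% and 19.6%.

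**Figure D1:**
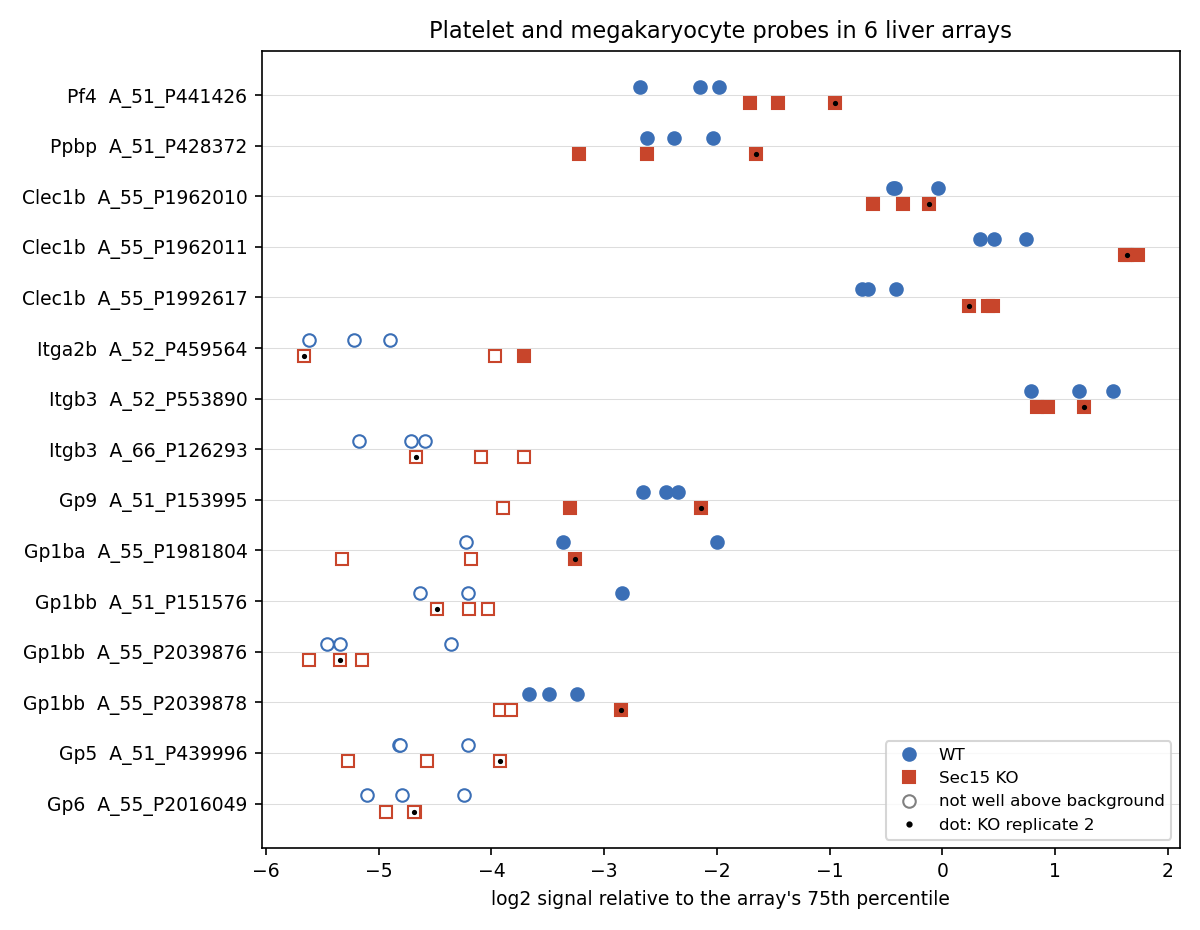
The log2 signal of each of the 15 probes on each array, relative to the array's 75th percentile (WT circles, Sec15 KO squares, open where not well above background, a dot for KO replicate 2). The KO squares lie clear of the WT circles for Pf4 and for Clec1b probes A_55_P1962011 and A_55_P1992617 only.

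The promoters of Pf4, Ppbp and Clec1b are shown because Pf4 and Clec1b were the 2 genes that rose, and Ppbp is the close neighbour of Pf4 that did not pass the test. The sequences are the 250 bases before the RefSeq start (build GRCm38.p6), 5′ to 3′ on the gene's strand, with matches to the 3 motifs searched in capitals.
Pf4 promoter, chr5:90772185-90772434, + strand: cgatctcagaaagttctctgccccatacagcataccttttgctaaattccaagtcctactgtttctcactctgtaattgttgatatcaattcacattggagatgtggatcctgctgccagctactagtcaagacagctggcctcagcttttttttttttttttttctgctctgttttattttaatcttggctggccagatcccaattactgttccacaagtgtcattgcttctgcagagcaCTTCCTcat
Ppbp promoter, chr5:90768268-90768517, + strand: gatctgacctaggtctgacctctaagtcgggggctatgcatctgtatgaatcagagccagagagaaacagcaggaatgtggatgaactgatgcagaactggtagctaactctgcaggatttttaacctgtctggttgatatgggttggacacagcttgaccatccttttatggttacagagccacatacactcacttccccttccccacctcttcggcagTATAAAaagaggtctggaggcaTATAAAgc
Clec1b promoter, chr6:129397047-129397296, + strand: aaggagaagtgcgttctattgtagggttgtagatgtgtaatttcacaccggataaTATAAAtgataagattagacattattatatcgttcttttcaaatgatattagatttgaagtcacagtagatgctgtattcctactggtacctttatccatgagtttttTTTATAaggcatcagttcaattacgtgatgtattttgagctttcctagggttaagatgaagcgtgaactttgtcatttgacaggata

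The motifs were AGATAA, a word bound by GATA factors, AGGAAG, a word bound by ETS factors, and TATAAA, the TATA box, each searched on both strands. Of the 10 genes, 9 had a promoter entry (Itgb3 had none). AGATAA was found in 2 of the 9, Gp5 and Gp6. AGGAAG was found in 5, which were Pf4, Itga2b, Gp9, Gp1ba and Gp5. TATAAA stood in the windows of Ppbp and Clec1b. Among the 32851 promoter windows of this length in the RefSeq table, 9.99% held AGATAA, 29.5% AGGAAG and 12.4% TATAAA. Pf4 had its AGGAAG match on the reverse strand, starting 9 bases before the gene start. The Ppbp window held TATAAA at 30 and at 8 bases before the start, and Clec1b held it at 195 and, reversed, at 87. No printed matches overlapped. These are matches of letters, and no binding was measured.

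Pf4 and Ppbp encode abundant chemokines of the platelet alpha granule. Pf4 (CXCL4) binds heparin-like chains, and Ppbp is the precursor from which the neutrophil-attracting CXCL7 is cut. They lie on the same strand of chromosome 5, with their starts 3917 bases apart. The Pf4 probe, A_51_P441426, read -1.98, -2.68 and -2.15 in WT replicates 1 to 3 and -1.71, -0.95 and -1.46 in KO replicates 1 to 3. The lowest KO value lay above the highest WT value. The difference was 0.90 on the log2 scale (SE 0.26, 95% confidence interval 0.25 to 1.54, limma adjusted p = 0.0498). The call was lost without any one of the 6 arrays (limma adjusted p between 0.0560 and 0.127). It was also lost with the scan as a block (1.32, adjusted p = 0.0577). The second scan held no WT array, so the blocked difference is that of KO replicate 2 from the WT mean. The Pf4 difference was positive in all 19 alternative settings. Because the groups did not overlap, only a change of normalisation could have turned that sign.

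The Ppbp probe, A_51_P428372, read -2.38, -2.04 and -2.62 in WT and -3.22, -1.65 and -2.62 in KO. The KO values lay on both sides of WT, with KO replicate 2 the highest of the 6 arrays and KO replicate 1 the lowest. The difference was -0.15 (95% confidence interval -1.15 to 0.84, limma adjusted p = 0.787), and none of the 19 alternatives called it. On the arrays of a single scan, KO replicate 2 stood 0.69 above the WT mean for Ppbp and 1.32 above it for Pf4.

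Clec1b encodes CLEC-2, the receptor for podoplanin. Its 3 probes carry the same accession, NM_019985. Probe A_55_P1962011 read 0.74, 0.34 and 0.46 in WT and 1.62, 1.64 and 1.74 in KO. The 3 KO values lay within a narrow band above every WT value, and the difference was 1.16 (SE 0.13, 2.23-fold, limma adjusted p = 0.00697). Probe A_55_P1992617 read -0.41, -0.71 and -0.66 in WT and 0.45, 0.23 and 0.41 in KO, again with no overlap. Its difference was 0.96 (SE 0.12, 1.94-fold, limma adjusted p = 0.00844). Neither these probes nor Pf4 could go below p = 0.1 in an exact permutation test (two-sided), the floor for groups of 3, and each reached it.

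The remaining Clec1b probe, A_55_P1962010, did not show this. It read -0.03, -0.44 and -0.42 in WT and -0.61, -0.12 and -0.35 in KO, and the groups overlapped. Its difference was -0.07 (95% confidence interval -0.50 to 0.37, limma adjusted p = 0.793), so its interval does not reach the differences of the other 2 probes. Within the arrays of 1 scan, KO replicate 2 lay 1.13 (A_55_P1962011), 0.83 (A_55_P1992617) and 0.18 (A_55_P1962010) above the WT mean. Without WT replicate 3 the adjusted p of the probes that rose was 0.0508 and 0.0570, so both calls ended there. They held without each of the other 5 arrays.

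Kupffer cells are another liver source of Clec1b, so their markers stand beside it. Each of the 12 probes of the Kupffer and macrophage list was detected throughout. In KO 3 of the 12 were higher (25%, against 17.0% of all probes tested), none lower and 9 not past the test, with a median difference of 0.33. Over all probes tested the share higher rose with brightness, from 4.99% in the dimmest decile to 36.4% in the brightest. The list was not matched for brightness. Marco, a scavenger receptor, rose 3.38-fold and Cd5l, a secreted macrophage protein, rose 1.63-fold (limma adjusted p = 0.0100 and 0.0153). With the scan as a block 0 of the 12 passed by limma, and 4 had an unadjusted p under 0.05. Of these 4, Marco (1.61, adjusted p = 0.0588) and Cd5l (0.49, adjusted p = 0.0586) were higher. Adgre1 probe A_55_P2018934 (-1.30) and C1qa (-0.46) were lower. In the main fit these differed by -0.83 and 0.04, neither called, and the other Adgre1 probe by 0.40. The summed level of the list, as a ratio to the WT mean, was 0.988 to 1.02 in WT and 1.31 to 1.67 in KO. The part of these markers in the Clec1b result was not tested.

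Itga2b and Itgb3 encode the 2 chains of the platelet fibrinogen receptor, alphaIIb and beta3. Beta3 also pairs with alphaV on endothelial and other cells. The Itga2b probe, A_52_P459564, was well above background on KO replicate 1 only and was not tested. It read -5.22, -4.90 and -5.62 in WT and -3.71, -5.67 and -3.97 in KO, where values this low have no reliable order. Itgb3 had 1 bright probe and 1 that was above background on no array. The bright probe, A_52_P553890, read 0.78, 1.51 and 1.21 in WT and 0.84, 1.25 and 0.93 in KO. The KO values lay inside the WT range, with a difference of -0.16 (95% confidence interval -0.69 to 0.37, limma adjusted p = 0.589).

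The GPIb-IX-V complex, which holds platelets to von Willebrand factor, is built from Gp1ba, Gp1bb, Gp9 and Gp5. Gp1ba carries the binding site, Gp1bb and Gp9 are small partner chains, and Gp5 is the loosely held subunit that thrombin cuts. The Gp9 probe, A_51_P153995, read -2.66, -2.35 and -2.45 in WT and -3.90, -2.14 and -3.30 in KO. The WT values were close together, whereas KO replicates 1 and 3 lay below all of them and KO replicate 2 above all of them. The difference was -0.63 (SE 0.44, limma adjusted p = 0.297). Without KO replicate 2 it was -1.12 with an adjusted p of 0.0134, and within the single scan KO replicate 2 stood 0.34 above the WT mean, so the sign turned with that array.

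The Gp1ba probe, A_55_P1981804, read -1.998, -4.23 and -3.37 in WT and -5.33, -3.26 and -4.19 in KO. It was well above background on WT replicates 1 and 3 and on KO replicate 2 only. Both groups spread widely, with an SD of 1.13 in WT and 1.03 in KO, and the difference of -1.06 had a 95% confidence interval of -2.83 to 0.71 (limma adjusted p = 0.292).

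Gp1bb had 3 probes. A_55_P2039878 read -3.24, -3.49 and -3.67 in WT and -3.92, -2.85 and -3.82 in KO, with KO replicate 2 above all WT values and the other 2 KO arrays below them and not well above background. Its difference was -0.07 (95% confidence interval -0.82 to 0.68). A_51_P151576 was above background on WT replicate 1 only, and A_55_P2039876 on no array. The probe of Gp5, A_51_P439996, and that of Gp6, A_55_P2016049, which encodes the collagen receptor GPVI, were also above background on no array. They gave only an upper limit on the level, and no fold is given for them. In all, 4 of the 15 probes were above background nowhere.

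**Figure D2:**
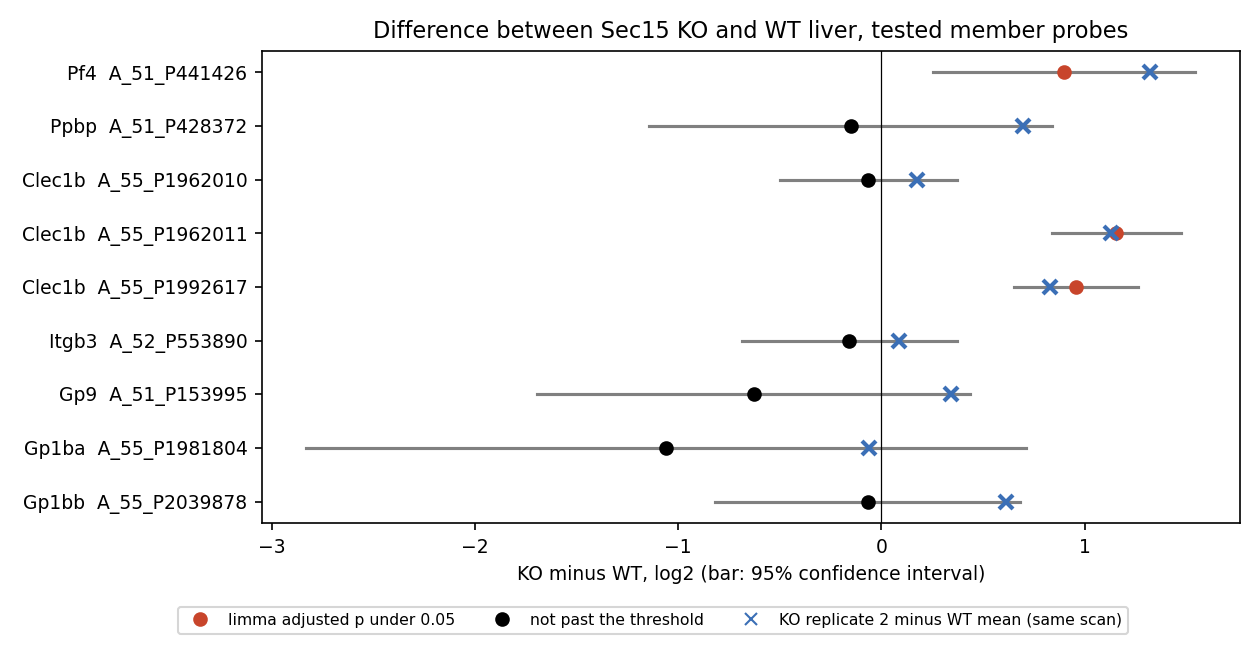
The KO minus WT difference in log2 signal of the 9 tested probes with its 95% confidence interval from limma (red where the adjusted p was under 0.05), and, as a cross, KO replicate 2 minus the WT mean within the scan they share. The crosses of the 2 Clec1b probes that rose lie near their points, whereas those of Ppbp, Gp9, Gp1ba and Gp1bb lie well to the right of theirs.

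KO replicate 2 stood apart from the other KO arrays in these genes, and also over the array as a whole. Its signals correlated (Pearson) at 0.97 with KO replicate 1 and at 0.97 with KO replicate 3, against 0.99 between KO replicates 1 and 3. With the WT arrays KO replicate 2 correlated at 0.96 to 0.97, and KO replicates 1 and 3 at 0.94 to 0.96. So its distance from them is not particular to the platelet genes. KO replicate 2 was the highest of the 6 arrays for 4 of the 9 tested probes (Pf4, Ppbp, Gp9 and Gp1bb), and KO replicate 1 was the lowest for 5 of them. Over all tested probes KO replicate 2 was the highest for 20.0% and KO replicate 1 the lowest for 18.8%. Relative to the mean of KO replicates 1 and 3, KO replicate 2 was higher by 1.27 for Ppbp, 1.46 for Gp9, 1.50 for Gp1ba and 1.02 for Gp1bb probe A_55_P2039878. Gp1ba and this Gp1bb probe were not well above background on KO replicates 1 and 3, nor was Gp9 on KO replicate 1. The contrast was 0.63 for Pf4, and 0.36 for both the bright Itgb3 probe and Clec1b probe A_55_P1962010. For the Clec1b probes that rose, A_55_P1962011 and A_55_P1992617, it was -0.04 and -0.20. The median of that contrast over all tested probes was -0.02, and 7.46% of them exceeded 1. KO replicate 2 was scanned together with the 3 WT arrays, and KO replicates 1 and 3 in a second scan, so within the KO group the array and the scan cannot be told apart. Neutrophil markers were also highest on this array, at 2.24 times the WT mean in summed level, against 1.26 and 1.71 on KO replicates 1 and 3. Their part in this pattern was not tested.

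The summed level of the 15 probes was 0.959 to 1.03 of the WT mean in WT and 1.23, 1.45 and 1.33 in KO replicates 1 to 3. This rested on Clec1b. Without its probes the sum was 0.888 to 1.14 in WT and 0.790, 1.17 and 0.876 in KO, and the groups overlapped. The bright Itgb3 probe weighs most in that sum. Without Itgb3 as well it was 1.2, 0.91 and 0.89 in WT and 0.764, 1.45 and 0.948 in KO, again with overlap.

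Other genes of platelet formation and function were followed in 9 lists holding 107 genes. Of these genes 105 had a probe, and 111 of their 139 probes passed the filter. In KO, 30 of the 111 were higher (27.0%) and 9 lower (8.11%), beside 17.0% and 11.6% of all probes tested, and the median difference was 0.10, against 0.08 for all probes tested. With the scan as a block, where KO replicate 2 alone sets the difference from WT, 10 were higher and 5 lower. Of all 27024 probes tested, 1311 were higher and 1212 lower in that fit. Of the 30 higher, 2 passed the filter through KO alone and had to differ, and without such probes 28 of 109 were higher.

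**Figure D3:**
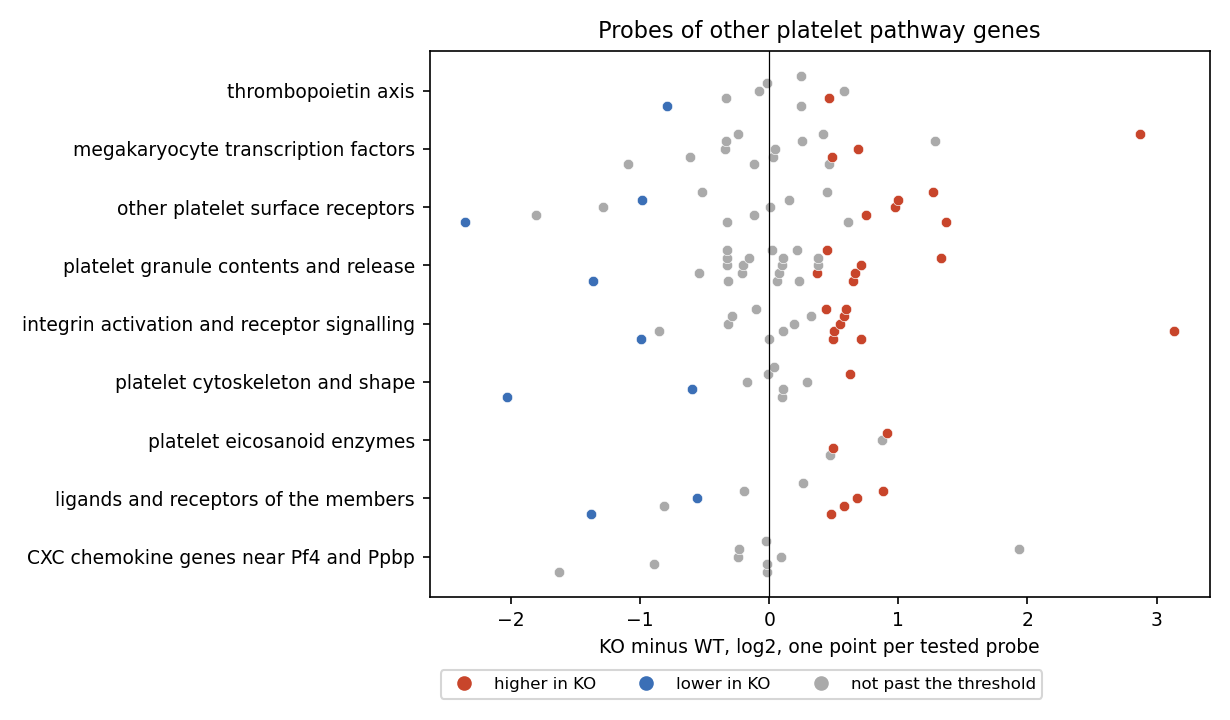
The KO minus WT difference in log2 signal of each tested probe of the 9 lists, 1 point per probe, coloured by the limma call at an adjusted p under 0.05. The signalling list has 8 points called higher and 1 lower, and the chemokine list has none called. For the points of Nfe2 and Btk at the far right WT was below background, so their differences are bounds in the text.

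In the thrombopoietin axis 1 of 8 tested probes was higher and 1 lower (12.5% each, against 17.0% and 11.6% of all probes tested). Asgr1, a chain of the hepatocyte receptor that takes up aged platelets, rose by 0.47 on its brighter probe (limma adjusted p = 0.0215). That call ended with the scan as a block (0.35, adjusted p = 0.0879) and after cyclic loess (0.18, adjusted p = 0.156), and its second probe, A_55_P2003823, differed by 0.58 (adjusted p = 0.0793). Thpo, the hormone gene itself, read -4.02, -3.65 and -3.55 in WT and -3.75, -3.02 and -3.72 in KO on its detected probe, A_66_P119983, near the lower limit of detection, and its groups overlapped (difference 0.24, adjusted p = 0.454). Sh2b3, an adaptor that restrains cytokine signalling in blood cells, differed by 0.25 (adjusted p = 0.311).

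Of 15 tested probes for megakaryocyte transcription factors, 3 were higher (20.0%, against 17.0% of all probes tested) and none lower. Nfe2, a factor needed for platelet release and also active in red cell precursors, was above background on no WT array and on all 3 KO arrays. It read -6.29, -6.11 and -5.01 in WT and -2.65, -3.20 and -2.95 in KO, at least 2.27-fold higher, the bound being taken against the lowest detected signal on each WT array. It passed the filter through KO alone, so no p-value is given, and without it 2 of 14 probes were higher. These were of Lyl1 and Meis1, both factors of early blood cells. Lyl1 rose by 0.69 (SE 0.12) and kept its call with the scan as a block (0.89, adjusted p = 0.0278). Meis1 rose by 0.49 (SE 0.14), but its call ended with the scan as a block (0.25, adjusted p = 0.243) and after cyclic loess (0.45, adjusted p = 0.0710).

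Other surface receptors of platelets changed in both directions. Of 16 tested probes 5 were higher and 2 lower (31.2% and 12.5%, against 17.0% and 11.6% of all probes tested). Those higher included Esam, an adhesion molecule of endothelium and platelets, at 2.00-fold (SE 0.10 on the log2 scale, limma adjusted p = 0.00649), and the tetraspanin Cd9 at 1.69-fold (adjusted p = 0.0213). P2ry1, an ADP receptor, Cd36 and 1 of 2 Itgb1 probes were the others, named after their values were seen. Of these 5 probes only that of Esam kept its call with the scan as a block (0.87, limma adjusted p = 0.0274). There the difference of Itgb1 (A_52_P351816) was 0.75 in place of 1.37 (adjusted p = 0.139), and that of Cd36 was 0.59 in place of 1.27 (adjusted p = 0.0997). P2ry1 differed by 0.47 in place of 0.98 (adjusted p = 0.0627), and Cd9 by 0.81 (adjusted p = 0.0799). Cd9 also lost its call after cyclic loess (0.52, adjusted p = 0.0542). Those lower were Mpig6b and Treml1, both receptors largely limited to the megakaryocyte lineage. Mpig6b read -0.70, 0.51 and 0.09 in WT and -2.68, -1.96 and -2.52 in KO, 5.12-fold lower with no overlap (SE 0.35 on the log2 scale, limma adjusted p = 0.0106). With the scan as a block its difference was -1.93 (adjusted p = 0.0629). Treml1, also named after its value was seen, read -1.80, -1.30 and -1.66 in WT and -2.88, -2.15 and -2.69 in KO, 1.98-fold lower (adjusted p = 0.0281), and -0.57 with the scan as a block (adjusted p = 0.153).

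Among granule contents and release genes, 6 of 24 probes were higher and 1 lower. Vwf, the adhesive ligand of GPIb that is stored by platelets and endothelial cells, read 0.07, -0.19 and -0.10 in WT and 1.44, 1.08 and 1.26 in KO. It rose 2.52-fold with no overlap (SE 0.13 on the log2 scale, limma adjusted p = 0.00649). It kept its call with the scan as a block (1.15, adjusted p = 0.0279). The matrix protein gene Sparc rose by 0.71 and 0.66 on its 2 probes, and both calls ended with the scan as a block (0.53 and 0.49, adjusted p = 0.117 and 0.136). Snap23, a SNARE of granule release, was 2.58-fold lower on probe A_55_P2287260, while its second probe, A_52_P393306, differed by 0.06. Endothelial cells also express Vwf and Esam. Of 10 tested endothelial probes 3 were higher (30.0%, against 17.0% of all probes tested), none lower and 7 not past the test. The median difference was 0.33, and the summed level was 0.986 to 1.02 of the WT mean in WT and 1.17 to 1.54 in KO. All 10 were detected throughout and were not matched for brightness, and in the brightest decile of all probes tested 36.4% were higher. Stab2 and Lyve1, markers of the liver sinusoid, rose by 0.99 and 0.73, and with the scan as a block Stab2 alone of the 10 kept its call. After cyclic loess 2 of the 10 were higher and 1 lower, Kdr probe A_55_P2094469 (-0.43, limma adjusted p = 0.0200). In the main fit only this probe (-0.29) and Pecam1 (-0.39) were negative, and the other Kdr probe differed by 0.42. The part of these markers in the Vwf and Esam results was not tested.

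Integrin activation and receptor signalling had 8 of 17 probes higher and 1 lower (47.1% and 5.88%, against 17.0% and 11.6% of all probes tested). The probe that fell was of Rasgrp2, which activates Rap1, by 0.99 on A_55_P2143233 (its second probe, A_55_P2143219, differed by 0.20), and it was named after its value was seen. With the scan as a block this difference was -0.59 (adjusted p = 0.104). The kinase gene Btk was above background on no WT array and on every KO array on probe A_55_P1953819, at least 2.50-fold higher, while its second probe, A_55_P2158498, differed by 0.00. The first passed the filter through KO alone, so no p-value is given, and without it 7 of 16 probes were higher. Rap1b, the small GTPase that switches on alphaIIb-beta3, rose by 0.60 and kept its call with the scan as a block. Gna13, a G protein subunit, rose by 0.58 and did not (0.46, adjusted p = 0.0634). Of 9 cytoskeletal probes 1 was higher (11.1%) and 2 were lower (22.2%). The higher probe was of Tmsb4x, by 0.63, and the lower were of Actn1 (-0.60) and Diaph1 (-2.03 on probe A_55_P2112967, with -0.17 on A_51_P427768). None of these calls held with the scan as a block. There Tmsb4x differed by 0.59 (adjusted p = 0.0869), Actn1 by -0.26 (adjusted p = 0.161) and Diaph1 by -1.47 (adjusted p = 0.0558), and Tmsb4x also lost its call after cyclic loess (0.35, adjusted p = 0.0847). In the eicosanoid group, Tbxas1, the thromboxane synthase, rose by 0.91 and Ptgs1, which feeds it, rose by 0.50. Both calls ended with the scan as a block (0.75 and 0.40, adjusted p = 0.0620 and 0.176), and that of Ptgs1 after cyclic loess (adjusted p = 0.0535). Pla2g4a, the phospholipase upstream of both, differed by 0.47 (adjusted p = 0.173).

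Ligands and receptors of the platelet proteins gave 4 probes higher and 2 lower of 9 (44.4% and 22.2%, against 17.0% and 11.6% of all probes tested). Fibrinogen, the ligand of alphaIIb-beta3, is made by hepatocytes. Fgb, its beta chain, read 8.06, 7.99 and 8.05 in WT and 8.69, 8.67 and 8.79 in KO, 1.60-fold higher (SE 0.09 on the log2 scale, limma adjusted p = 0.00851). After cyclic loess its difference was 0.38 (adjusted p = 0.0306). The alpha chain Fga rose by 0.88 on probe A_55_P2123381 and fell by 0.56 on probe A_51_P193813, the latter losing its call with the scan as a block (adjusted p = 0.123). Itgam, the myeloid integrin chain that also binds GPIb, was 2.61-fold lower on probe A_55_P1977934. Its other 2 probes were not called and disagreed, A_55_P1977926 at -0.81 (adjusted p = 0.05003) and A_55_P1977929 at 0.26 (adjusted p = 0.0882). Of the CXC chemokine genes, 0 of 9 probes passed the test in either direction by limma, and 1 had an unadjusted p under 0.05, Cxcl15 (difference 1.94, adjusted p = 0.0550). Cxcl2 and Cxcl5 differed by -1.63 and -0.89 (adjusted p = 0.138 and 0.184), each detected throughout WT but on a single KO array.

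**Figure D4:**
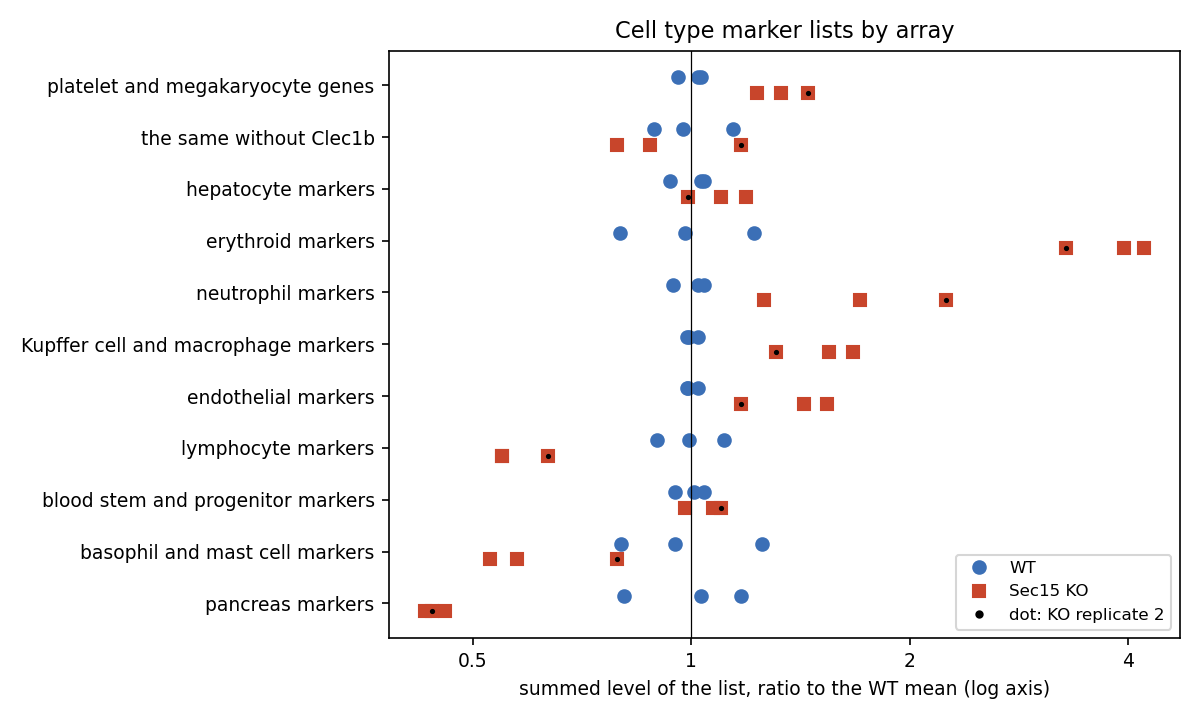
The summed level of each marker list on each array as a ratio to the WT mean, on a log axis (WT circles, Sec15 KO squares, a dot for KO replicate 2). The erythroid list lies at 3.28 to 4.20 in KO, and the platelet genes overlap WT once Clec1b is taken out.

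Markers of other blood cells differed between the groups as well, where 17.0% of all probes tested were higher and 11.6% lower. Of 12 tested erythroid probes 8 were higher (66.7%) and none lower, with a median difference of 2.04. Their summed level in KO was 3.28 to 4.20 times the WT mean. Kel and Rhd, red cell blood group genes, were detected in KO alone, on each of its arrays. They passed the filter through KO alone and had to differ, and both are counted in the 8, the 66.7% and the median. Of the erythroid probes not called, Klf1 differed by 0.34, Epb42 by 0.48, Alas2 by 0.02 and Ermap probe A_55_P2153381 by -0.12. Neutrophil probes were higher in 5 of 8 (62.5%) with a median of 1.66, led by Retnlg and S100a8. Of the others Mpo differed by 1.32, Elane by -0.30 and Ltf by -0.26, none called. After cyclic loess 4 neutrophil probes were higher and 1 lower, that of Elane (-0.54, limma adjusted p = 0.0197). Of 10 lymphocyte probes 4 were lower (40.0%), Gzma among them, and 6 of 7 pancreas probes were lower (85.7%), Clps and Try5 among them. Blood stem and progenitor markers overlapped, with a summed level of 0.950 to 1.04 in WT and 0.979 to 1.1 in KO, and 1 of 8 probes higher, Ly6a. In basophil and mast cell markers Hdc was higher and Cpa3 and Prss34 lower of 3 tested. With the scan as a block the erythroid and neutrophil counts were again 8 and 5 higher, with Kel and Rhd again among the 8. The lymphocyte list then had 1 lower, the pancreas list 2 lower, and Ly6a, Gzma, Cpa3, Prss34 and Try5 were not called. Of all 27024 probes tested, 1311 were higher and 1212 lower in that fit. The blocked difference is that of KO replicate 2 from the WT mean, so these counts rest on that array. The part of these cell types in the Pf4 result was not tested.

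The arrays were of like quality by the scanner flags. Between 64.8% and 70.3% of probes were well above background, each KO array lower than each WT array, and no spot was saturated. Each of the 11 hepatocyte marker probes, albumin included, was detected throughout. In KO 4 of them were higher (36.4%, against 17.0% of all probes tested) and none lower. With the scan as a block 0 passed in either direction by limma (4 at an unadjusted p under 0.05). The single Exoc6 probe was above background on WT replicate 3 only (-3.99, -3.93 and -3.78 in WT, and -3.60, -4.03 and -3.77 in KO). Exoc6b probe A_55_P1997415 read 0.31, 0.78 and 0.55 in WT and 0.14, -0.03 and -0.06 in KO, and its second probe was above background on no array. Exoc6b fell by 0.53 (limma adjusted p = 0.0436). Where these probes lie relative to the deletion is not known from the labels, so they do not check the genotypes. The brightest decile of probes had a median difference of 0.29 and the dimmest -0.26. In these deciles 36.4% and 4.99% were called higher, and 3.96% and 14.1% lower. Of all called probes 59.4% were higher, 70.1% after median centring, where the median difference of all probes was 0.19 in place of 0.08, and 47.8% after cyclic loess. The number of arrays limits the precision.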

How the data were processed

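Liver RNA from 6 samples was measured on single-colour Agilent arrays (Cy3), 1 array each. The deposited intensity values come from Agilent Feature Extraction 11.0.1.1, per the file headers. Its processed signal gives a spot's brightness after the scanner software's background subtraction and detrending, and arrays were not normalised to each other. Other values used from the deposited files were yes-or-no flags that mark detected, saturated and outlying spots.

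Outlier spots (178 to 236 of 43020 per array) were left out and spots of 1 probe averaged on the log2 scale. Each array's 75th percentile over the 39429 non-control probes was subtracted. Probes well above background on at least 3 of 6 arrays, with no missing array, were tested (27024). Accessions were matched to RefSeq symbols (GRCm38.p6, names only). Of the probes, 27234 matched 1 symbol. WT and KO were compared with limma 3.58.1 (lmFit, eBayes) in R 4.3.3, with Benjamini-Hochberg adjustment over all tested probes at 0.05. Files were read with data.table (version 1.17.8) and jsonlite 2.0.0. The fit was first tested on simulated data.

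The members and lists were chosen with earlier results of these data known. Named were every member probe, the 3 genes with the smallest p in each pathway list with Thpo, and the 2 with the smallest p in each cell type list, other than in the hepatocyte list. A few genes picked this way are not reported here. Kupffer, endothelial and blood cell lists stand for other cells of the tissue. Alternatives were quantile, median, normexp (offset 50, on median signals) and cyclic loess normalisation, other filters, array weights, robust eBayes with a trend, the brightest probe per gene, the replicate number or scan as a block, 1 scan alone, WT replicates 1 and 2 averaged (their file names share a number), and each array left out. Scan and normalisation alternatives for the marker lists, and pathway counts without probes detected in 1 group alone, were chosen after seeing the data. Scan means arrays with the same scan time in their headers. The second scan held no WT array, so the blocked difference is that of KO replicate 2 from the WT mean. KO replicates 1 and 3 then add only to the estimate of spread.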

Additional observations from a re-analysis of the deposited data

How the results depend on the processing

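Of the 3 member probes called higher and 0 called lower, 0 were higher on the arrays of 1 scan alone and 3 were lower with array weights (Itgb3, Gp9 and Gp1ba). Leaving out 1 array gave 0 to 2 higher and 0 to 1 lower. Pf4 was called in 8 of the 19 alternatives. Its difference was positive in all of them (0.61 to 1.32), where only a change of normalisation could have turned the sign. Clec1b probes A_55_P1962011 (0.87 to 1.28) and A_55_P1992617 (0.83 to 1.08) kept their call in 17 of 19 and 16 of 18 alternatives, losing it on 1 scan alone (adjusted p = 0.0932 and 0.104) and without WT replicate 3. Ppbp was called in none of 19, with 4 positive.

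Pathway probes went from 30 higher and 9 lower to 51 and 35 with array weights, 10 and 5 with the scan as a block, 0 and 0 on 1 scan alone, and 3 to 33 and 1 to 22 with 1 array left out. Over all probes, 4598 were higher and 3144 lower, against 12002 and 9154 with array weights, 1311 and 1212 with the scan as a block, and 204 to 6815 and 149 to 5784 with 1 array left out. Without WT replicate 3 the counts were 204 and 149, and without KO replicate 3 they were 486 and 512. Those higher numbered 2947 after cyclic loess and 2934 without a filter. On 1 scan alone limma called 0 and 0, with 7833 at an unadjusted p under 0.05. There KO replicate 2 is the lone KO array and is assumed to vary like the WT arrays.

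The replicate numbers gave deviations correlated at 0.105, 0.108 and 0.0242 for the same numbers, so they were not taken to pair samples. With the replicate block 2 member probes were higher and 0 lower, Pf4 losing its call (adjusted p = 0.116), and 3431 and 2694 probes in all. Array weights used the gene-by-gene method, which weighted WT replicate 3 at 12.0, so those counts lean on that array. Signal over background limits Itga2b, Gp5, Gp6 and most Gp1bb probes.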
